A study of Mus musculus with 17 samples.

Results

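The genes described here encode the ligand, the receptors and the first nuclear steps of transforming growth factor beta (TGF-beta) signalling: Tgfb1, Tgfbr1, Tgfbr2, Tgfbr3, Smad2, Smad3, Smad7, Ski, Skil and Tgif1. Their probes were picked by the gene symbol that the platform annotation gives, and they make up 10 of the 19057 gene symbols on the array. The genes were chosen with earlier results of these data known. Of the 45281 probes, 23 carry one of these symbols. Of those 23 probes, 15 were above background on at least 3 of the 17 arrays and were kept. They stand for 9 of the 10 genes. Smad7 had a single probe that was above background on 1 array, so it was not tested.

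RNA of mouse CD8 T cells was hybridised to 17 Illumina arrays, with 1 array per sample, to set partial memory T cells beside naive, effector and memory cells. All samples were OT-I cells, which bear a transgenic T-cell receptor against a peptide of ovalbumin (OVA), from animals of C57Bl/6 background aged 2 to 6 months. Tpm, the partial memory cells (n = 4), had been primed by LSEC, liver sinusoidal endothelial cells, in a coculture. Memory cells (n = 3) were isolated from spleen 3 months after infection with Listeria monocytogenes carrying OVA. Teff, the effector cells (n = 5), were activated in coculture with splenic dendritic cells, although spleen is given as the source of Teff 8. Naive cells (n = 5) came from spleen and serve as the baseline. Differences of Tpm or Teff from naive or memory cells combine priming with culture, and these cannot be told apart. The labels name no deleted gene and no added TGF-beta or inhibitor in any group. Whether replicate samples stem from different mice or cultures is not stated, so the p-values measure the spread between these samples only. Samples are called by their group and by the number in their label, which runs from 1 to 17 through all groups.

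As background, TGF-beta1 is secreted in a latent form and, once released, binds the receptor kinase TGFBR2, which recruits and phosphorylates TGFBR1. TGFBR1 then phosphorylates SMAD2 and SMAD3, which enter the nucleus with SMAD4 and bind DNA. SMAD7 blocks the receptor, while SKI, SKIL and TGIF1 bind Smad complexes and recruit corepressors. In T cells this pathway is known for restraining effector differentiation and for inducing the integrin chain CD103, the product of Itgae.

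The 250 bases before the RefSeq transcription start (assembly GRCm38.p6) are printed for Smad3, Tgif1, Tgfbr2 and Tgfbr1, the 4 genes whose levels differed most among the 4 groups by limma's moderated F, so that the reader can see the sequences in front of the genes the results turn on. Each is written 5′ to 3′ on the strand of the gene. Capitals mark the letters CAGAC, the core of the Smad binding element, and GGGCGG, the GC box, found on either strand. For Tgif1 and Tgfbr1, which have several annotated starts, the window farthest upstream is shown.
Smad3, chr9:63757995-63758244, minus strand: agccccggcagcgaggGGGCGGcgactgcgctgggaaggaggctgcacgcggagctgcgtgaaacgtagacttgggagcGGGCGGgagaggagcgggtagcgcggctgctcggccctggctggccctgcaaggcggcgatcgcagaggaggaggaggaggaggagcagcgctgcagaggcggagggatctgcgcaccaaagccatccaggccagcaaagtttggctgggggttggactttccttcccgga
Tgif1, chr17:70853533-70853782, minus strand: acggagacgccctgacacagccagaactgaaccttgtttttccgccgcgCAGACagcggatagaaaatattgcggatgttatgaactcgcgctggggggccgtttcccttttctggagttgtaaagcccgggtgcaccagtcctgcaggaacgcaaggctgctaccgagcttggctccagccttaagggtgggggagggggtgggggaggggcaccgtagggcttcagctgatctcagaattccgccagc
Tgfbr2, chr9:116175364-116175613, minus strand: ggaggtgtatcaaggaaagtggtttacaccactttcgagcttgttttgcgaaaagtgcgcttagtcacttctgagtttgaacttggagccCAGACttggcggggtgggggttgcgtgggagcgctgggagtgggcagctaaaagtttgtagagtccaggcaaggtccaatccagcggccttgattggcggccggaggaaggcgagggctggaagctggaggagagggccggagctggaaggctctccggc
Tgfbr1, chr4:47352972-47353221, plus strand: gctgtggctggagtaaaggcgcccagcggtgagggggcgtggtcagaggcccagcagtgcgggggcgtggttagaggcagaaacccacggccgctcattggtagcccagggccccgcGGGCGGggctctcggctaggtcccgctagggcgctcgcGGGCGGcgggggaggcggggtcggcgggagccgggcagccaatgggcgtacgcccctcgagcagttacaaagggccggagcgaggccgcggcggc
The Smad3 window held 2 GGGCGG matches, 234 and 171 bases before the start, and no CAGAC. The Tgif1 window held 1 CAGAC match 201 bases before the start, together with 1 match of TGTCA, the core bound by TGIF proteins. The Tgfbr2 window held 1 CAGAC match 160 bases before the start. The Tgfbr1 window held 2 GGGCGG matches, 133 and 95 bases before the start. Among all 32851 RefSeq windows of this length, 42.2% held CAGAC, 40.0% held TGTCA and 32.7% held GGGCGG, all counted on both strands. The GC content was 69.2% for Smad3, 59.6% for Tgif1, 58.4% for Tgfbr2 and 74.8% for Tgfbr1, beside 53.2% over all windows. A match is a description of these letters and shows no binding.

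A pair of memory arrays stood apart in brightness. Memory 3 had a mean signal of 140 with 31.2% of probes above background, and memory 5 had a mean signal of 96.7 with 20.1%. The other 15 arrays had mean signals from 227 to 471 with 31.9% to 38.7% of probes above background. Across genes, each array was closer to its own group's mean than to any other (r of 0.929 on memory 5 up to 0.990 on Teff 8). T-cell identity was clear on every array: 6 or 7 of the 7 tested CD8 T-cell markers were above background, led by Cd8b1, Cd3e, Cd3g and Cd3d. Cd8a was not tested, and no probe was assigned to Lck or Trac. Markers of some other cells moved with the groups, while those of macrophages and dendritic cells varied widely within some groups. The summed intensity of 14 LSEC markers was 5002 to 7825 in Tpm, 2032 to 3130 in memory cells, 1140 to 1636 in Teff and 252 to 604 in naive cells. On these arrays 12 to 14 of the 14 were above background in Tpm, 3 to 9 in memory cells, 5 to 7 in Teff and 3 to 6 in naive cells, and Lyve1, a defining LSEC marker, was above it in Tpm only. Against naive cells the median difference of the 14 was 2.49 in Tpm, 0.045 in memory cells and -0.030 in Teff. In Tpm 10 of the 14 rose, in memory cells 2 and in Teff 3. The higher sums in memory cells and Teff are thus no shift of the list as a whole. Stromal markers summed to 981 to 1987 in Tpm, 32.5 to 287 in memory cells, 24.9 to 32.9 in Teff and 25.7 to 37.0 in naive cells. Red-cell markers summed to 17.0 to 32.0 in Tpm, 5896 to 15160 in memory cells, 14.7 to 26.3 in Teff and 6016 to 35213 in naive cells. Macrophage markers summed to 82.8 to 2282 in Tpm and 71.3 to 743 in naive cells. In memory cells they summed to 96.7 to 388, and in Teff to 23.9 to 43.4. Dendritic-cell markers summed to 370 to 7641 in Tpm and 312 to 2733 in naive cells. In memory cells they summed to 344 to 2356, and in Teff to 1587 to 2774. The part of these other cells in the differences below was not tested. Each sample was a bulk RNA, so fewer cells of a type and less RNA per cell cannot be told apart.

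Smad3 and Tgif1 carried the widest differences. Smad3, the receptor-activated Smad, was highest in memory cells, then in naive cells, then in Tpm and lowest in Teff. Tgif1, a Smad corepressor, was lower in Tpm, memory cells and Teff than in naive cells. Both type I and type II receptor transcripts were lower in Teff than in Tpm and naive cells, and Tgfbr3, the co-receptor betaglycan, was lower in memory cells than in the other 3 groups. These orders are those of each gene's brightest probe. On the second kept probes, Tpm was not called against Teff for Smad3, Tgfbr1 or Tgfbr2. Memory against naive cells was not called on the second Smad3 probe either.

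Values are log2 of the background-corrected, quantile-normalized intensity, to which 16 was added before taking the log. This offset makes the differences of dim genes look smaller. Differences between groups come from limma, with p-values adjusted over the 10622 genes tested, and a gene was called at an adjusted p under 0.05. In Tpm against naive cells, none of the 9 genes rose and 4 fell, where 16.5% of all genes rose and 9.4% fell. In Tpm against memory cells, 1 rose and 1 fell, with 16% and 8.6% of all genes. In Tpm against Teff, 4 rose and none fell, with 15.8% and 13.5% of all genes. In memory cells against Teff, 2 rose and 1 fell, with 17.7% and 23.2% of all genes. In memory against naive cells, 1 rose and 4 fell, with 9.86% and 11.6% of all genes. In Teff against naive cells, none rose and 6 fell, with 22.9% and 19.9% of all genes. Where none rose or none fell by limma, none did at an unadjusted p under 0.05 either. The median difference over the 9 genes was -0.74 for Tpm against naive cells, -1.0 for memory against naive cells and -1.44 for Teff against naive cells, beside 0.056, -0.047 and 0.0022 over all genes. These 3 comparisons share the naive arrays. With a difference of at least 2-fold asked for as well, 2 of the 9 genes passed in Tpm against naive cells (13.2% of all genes), 2 in Tpm against memory cells (14.7%), 1 in Tpm against Teff (15.1%), 2 in memory cells against Teff (25.8%), 4 in memory against naive cells (12.5%) and 6 in Teff against naive cells (23.8%).

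**Figure D1:**
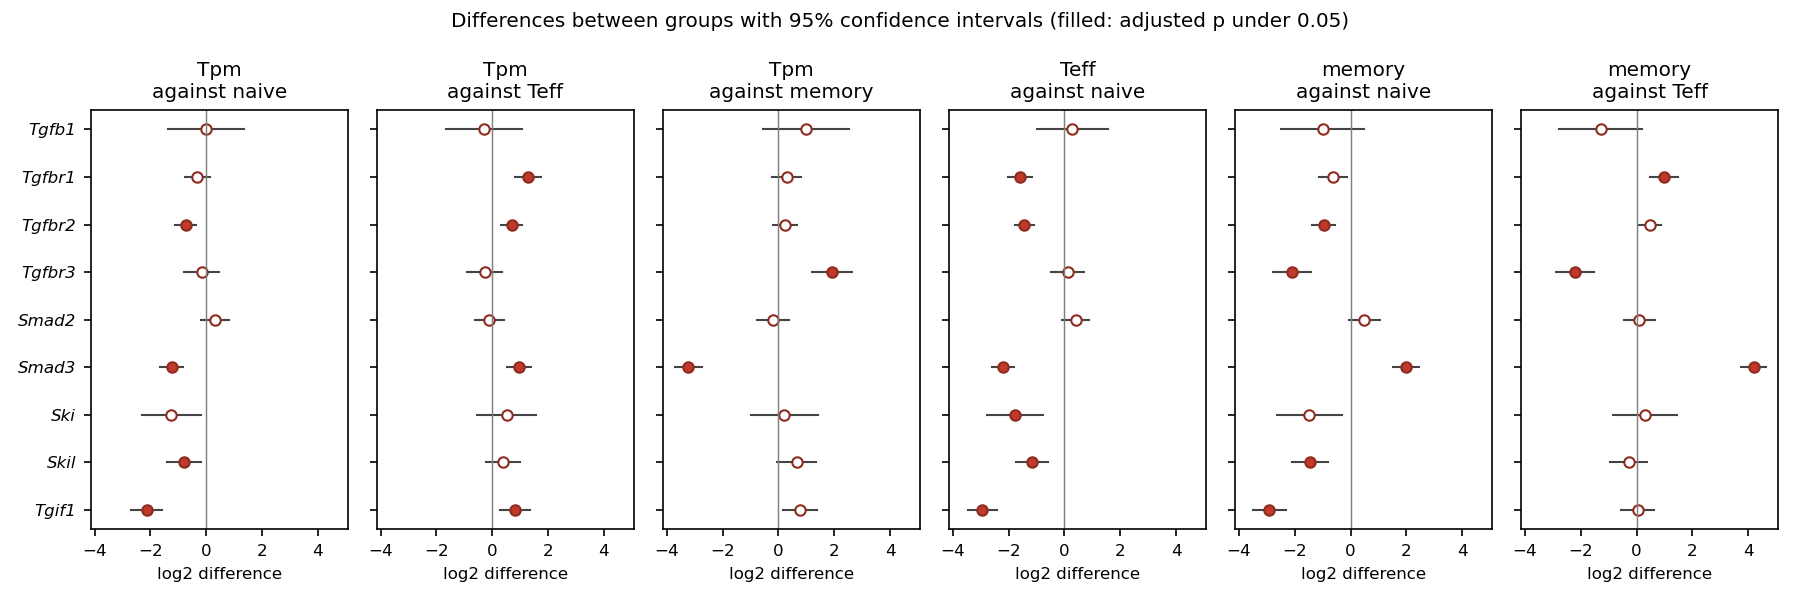
Log2 differences between groups (x axis) for the 9 tested genes (y axis), 1 panel per comparison, with 95% confidence intervals as lines and filled points at an adjusted p under 0.05. Smad3 is filled in all 6 panels, at 1.99 for memory against naive cells and -2.20 for Teff against naive cells, and Tgif1 lies at -2.14, -2.91 and -2.94 in the panels of Tpm, memory cells and Teff against naive cells.

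The receptors come first. Tgfbr1, the type I receptor kinase that phosphorylates SMAD2 and SMAD3, read 9.34, 9.57, 9.67 and 9.24 in Tpm (arrays 4, 7, 14 and 15), 8.70, 9.08 and 9.66 in memory cells (3, 5 and 9), 8.16, 8.50, 7.78, 8.67 and 7.78 in Teff (6, 8, 10, 16 and 17) and 9.56, 9.87, 9.70, 9.78 and 9.92 in naive cells (1, 2, 11, 12 and 13). All Teff arrays lay below all others, the naive arrays lay close together, and the Tpm and memory arrays overlapped with the naive ones. Tgfbr1 fell by 1.59 ± 0.20 (SE) in Teff against naive cells, which is 3.01-fold (adjusted p = 5.1e-06). It was 2.42-fold higher in Tpm than in Teff (1.28 ± 0.22 SE, adjusted p = 0.000203) and 1.96-fold higher in memory cells than in Teff (0.97 ± 0.24 SE, adjusted p = 0.00289). That last difference was 1.49 without the dim arrays memory 3 and memory 5 (adjusted p = 0.0018), and with arrays scaled to their median in place of quantile normalization it was -0.0031 (adjusted p = 0.994). Tpm and naive cells differed by -0.31 with a 95% interval from -0.77 to 0.14 (adjusted p = 0.335). Memory and naive cells differed by -0.62 (adjusted p = 0.0708). This difference was -0.88 without memory 9 (adjusted p = 0.0145), -0.39 without memory 3 (adjusted p = 0.287) and -0.10 with memory 9 alone (adjusted p = 0.906), and median scaling gave -1.59 (adjusted p = 0.00255).

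Tgfbr2, the type II receptor that binds the ligand, differed between naive cells and every other group. It read 11.46, 12.23, 12.20 and 11.96 in Tpm, 11.77, 11.46 and 11.96 in memory cells, 11.30, 11.35, 11.23, 11.35 and 11.10 in Teff and 12.41, 12.73, 12.69, 13.01 and 12.67 in naive cells. The naive arrays lay above all others and the Teff arrays below all others, while Tpm and memory arrays overlapped in between. Tgfbr2 fell 2.71-fold in Teff against naive cells (-1.44 ± 0.17 SE, adjusted p = 1.57e-06). It fell 1.96-fold in memory cells against naive cells (-0.97 ± 0.19 SE, adjusted p = 0.00137), which became -0.74 (adjusted p = 0.104) when memory 9 alone stood for the memory group. Tpm lay 1.67-fold below naive cells (-0.74 ± 0.18 SE, adjusted p = 0.00443) and 1.62-fold above Teff (0.70 ± 0.18 SE, adjusted p = 0.00567). Both of these Tpm calls were lost with arrays scaled to their median, at -0.73 (adjusted p = 0.173) against naive cells and 0.74 (adjusted p = 0.139) against Teff. Within sample numbers 1 to 11 and 12 to 17, Tgfbr2 in Tpm was at -0.76 (adjusted p = 0.077) and -0.76 (adjusted p = 0.0543) against naive cells, and at 0.55 (adjusted p = 0.174) and 0.85 (adjusted p = 0.035) against Teff. In Tpm against memory cells the Tgfbr2 difference was 0.23 with an interval from -0.19 to 0.65. In memory cells against Teff it was 0.47 (adjusted p = 0.0607), and 0.60 without memory 5 (adjusted p = 0.0334). Without Tpm 4 it was called as well (0.47, adjusted p = 0.0338). In all, 6 of the 29 other settings called it, those without memory 5 and without Tpm 4 included. It was 0.70 with memory 9 alone (adjusted p = 0.0723) and turned to -0.71 with arrays scaled to their median (adjusted p = 0.112).

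Tgfbr3 encodes betaglycan, a co-receptor with no kinase that presents the ligand to the type II receptor. It read 6.22, 7.60, 7.12 and 6.83 in Tpm, 5.79, 4.14 and 5.09 in memory cells, 7.17, 7.48, 7.00, 7.09 and 7.34 in Teff and 7.27, 7.13, 7.53, 6.96 and 6.63 in naive cells. All memory arrays were below all others, memory 5 was not above background, and the remaining groups overlapped. In memory cells Tgfbr3 was 3.83-fold lower than in Tpm (Tpm minus memory 1.94 ± 0.34 SE, adjusted p = 0.000473). It fell 4.62-fold against Teff (-2.21 ± 0.33 SE, adjusted p = 3.11e-05) and 4.28-fold against naive cells (-2.10 ± 0.33 SE, adjusted p = 0.000158). With the dim arrays memory 3 and memory 5 left out, these 3 differences of Tgfbr3 were 1.85, -2.12 and -2.01, with adjusted p of 0.00501, 0.000677 and 0.0028. On the authors' processed values, from which no background was subtracted, they were 0.84, -0.99 and -0.93 and were still called. Tpm and Teff differed from naive cells by -0.16 (interval -0.79 to 0.47) and 0.11 (interval -0.48 to 0.71), and Tpm differed from Teff by -0.27 (interval -0.90 to 0.36).

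**Figure D2:**
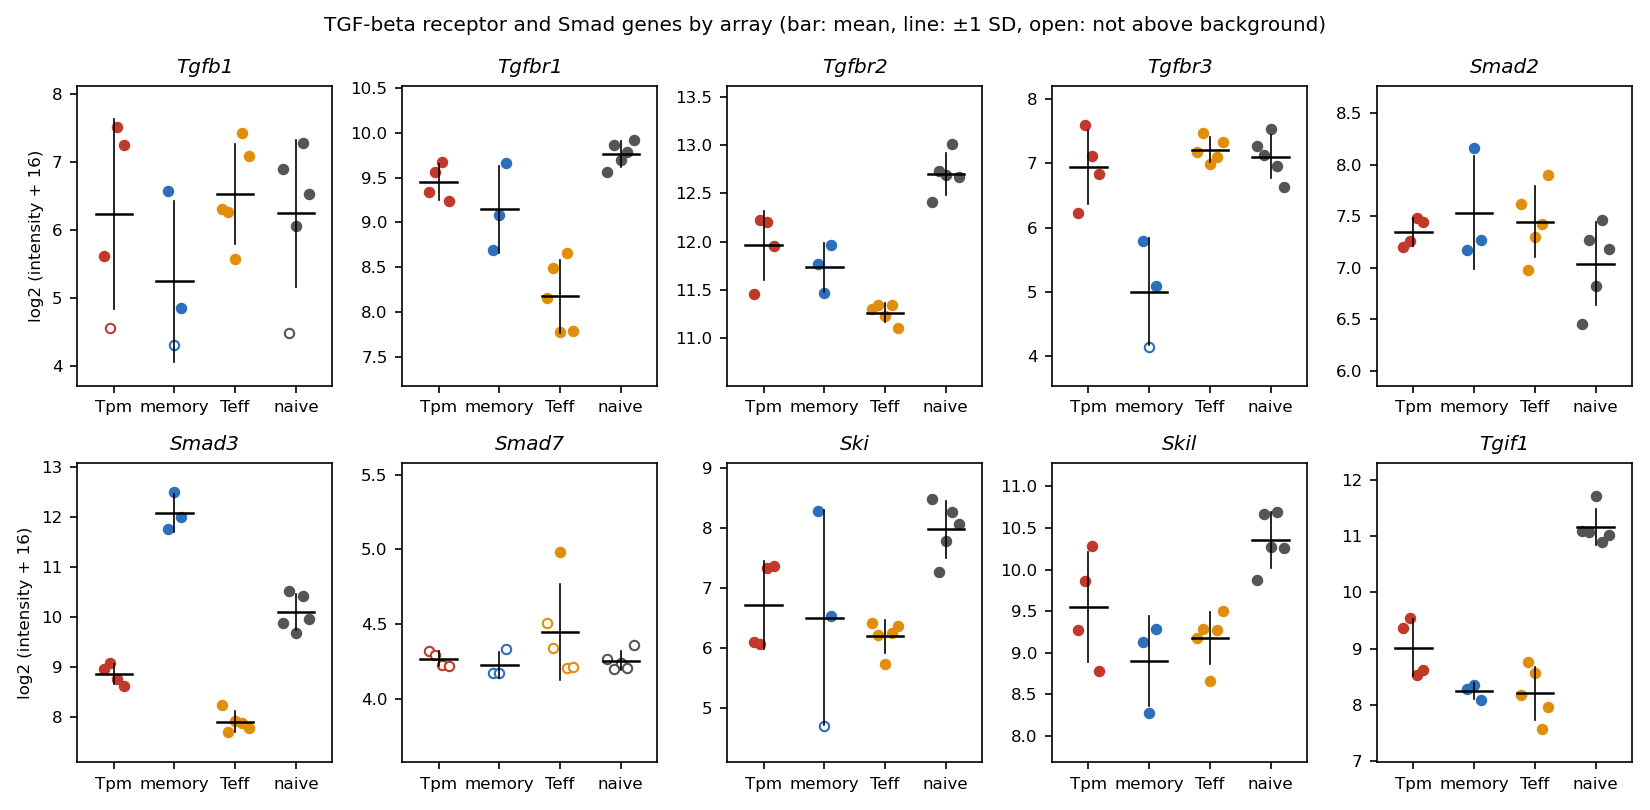
Log2 (intensity + 16) of the 10 genes on each array (y axis, separate range per gene) in Tpm, memory cells, Teff and naive cells (x axis); points are arrays, open points are not above background, bars are means and lines 1 SD. The Smad3 points form 4 separate levels, from 7.68 to 8.23 in Teff up to 11.76 to 12.49 in memory cells, while the Smad2 and Tgfb1 points of the 4 groups overlap.

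The ligand gene Tgfb1 varied widely within each group. It read 5.62, 4.55, 7.51 and 7.24 in Tpm, 6.57, 4.31 and 4.84 in memory cells, 6.30, 6.27, 5.57, 7.42 and 7.08 in Teff and 6.88, 4.49, 6.05, 7.27 and 6.52 in naive cells. All groups overlapped, and Tpm 7, memory 5 and naive 2 were not above background. None of the 6 comparisons passed, with the widest difference at -1.29 (interval -2.77 to 0.19, adjusted p = 0.158) in memory cells against Teff. That difference was -1.95 without memory 3 (adjusted p = 0.0483) and -0.82 without memory 5 (adjusted p = 0.46). The level of Tgfb1 also moved with the sample number, averaging 7.38 on the Tpm arrays numbered 12 to 17 and 5.08 on those numbered 1 to 11. The same split gave 7.25 and 6.04 in Teff and 6.90 and 5.81 in naive cells. Memory cells have no array in the higher range.

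Smad3 separated the 4 groups with no overlap between any of them. It read 8.95, 9.07, 8.75 and 8.62 in Tpm, 11.76, 12.49 and 12.00 in memory cells, 8.23, 7.68, 7.92, 7.87 and 7.77 in Teff and 9.87, 10.51, 9.68, 10.42 and 9.96 in naive cells. Its moderated F over the groups ranked 81 among 10622 genes. Memory cells had 18.3-fold more Smad3 signal than Teff (4.19 ± 0.22 SE, adjusted p = 1.75e-10) and 3.98-fold more than naive cells (1.99 ± 0.22 SE, adjusted p = 3.45e-06). Teff fell 4.58-fold below naive cells (-2.20 ± 0.19 SE, adjusted p = 4.94e-08). Tpm lay 9.43-fold below memory cells (-3.24 ± 0.23 SE, adjusted p = 2.75e-08) and 2.37-fold below naive cells (-1.24 ± 0.20 SE, adjusted p = 0.000174), yet 1.94-fold above Teff (0.95 ± 0.20 SE, adjusted p = 0.00146).

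The memory level of Smad3 rests partly on the dim arrays, so their deposited signals matter. Before normalization memory 3, memory 5 and memory 9 had 950, 500 and 3449 units, against 881, 1270, 650, 1598 and 1621 in naive cells. Memory 9, the memory array of ordinary brightness, was thus above all naive arrays without any scaling, while the dim memory 3 and memory 5 were not above them all. With memory 9 alone, Smad3 in memory cells differed from Tpm, Teff and naive cells by amounts close to those above: Tpm minus memory was -3.15 (adjusted p = 4.1e-06), memory minus Teff was 4.10 (adjusted p = 9.23e-08) and memory minus naive was 1.91 (adjusted p = 0.000548). Scaling the arrays to their median gave 0.86 for memory against naive cells (adjusted p = 0.0458) and -2.09 for Tpm against memory cells (adjusted p = 6.11e-05).

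Smad2, the other receptor-activated Smad of the TGF-beta branch, did not follow Smad3. It read 7.20, 7.26, 7.48 and 7.45 in Tpm, 7.17, 8.17 and 7.27 in memory cells, 7.62, 6.98, 7.30, 7.43 and 7.90 in Teff and 6.45, 7.27, 6.82, 7.47 and 7.19 in naive cells. The groups overlapped throughout, and no comparison of Smad2 passed. Its differences ran from -0.19 in Tpm against memory cells (interval -0.77 to 0.39) to 0.50 in memory against naive cells (interval -0.06 to 1.05, adjusted p = 0.199).

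Smad7, the inhibitory Smad, was above background on Teff 10 only, at 4.98. On the other 16 arrays its single probe read 4.18 to 4.51, so its level cannot be ordered among the groups.

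Among the nuclear repressors, Tgif1 changed most. It read 9.36, 9.54, 8.54 and 8.63 in Tpm, 8.28, 8.36 and 8.09 in memory cells, 8.18, 8.77, 8.57, 7.58 and 7.96 in Teff and 11.09, 11.07, 11.70, 10.89 and 11.02 in naive cells. The naive arrays stood well above all others, and Tpm arrays lay above memory arrays but overlapped with Teff. Tgif1 fell 4.4-fold in Tpm (-2.14 ± 0.26 SE, adjusted p = 9.02e-06), 7.52-fold in memory cells (-2.91 ± 0.28 SE, adjusted p = 8.25e-07) and 7.69-fold in Teff (-2.94 ± 0.24 SE, adjusted p = 2.96e-08), each against naive cells. With memory 9 as the sole memory array the fall was 3.06 on the log2 scale (adjusted p = 0.000173).

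Differences of Tgif1 among Tpm, memory cells and Teff were smaller. Tpm exceeded Teff by 0.81 ± 0.26 (SE, adjusted p = 0.0251), but not without Teff 16 (0.65, adjusted p = 0.0725), Teff 17 (0.74, adjusted p = 0.0603), Tpm 4 (0.69, adjusted p = 0.0874) or Tpm 7 (0.63, adjusted p = 0.1). The call was also lost with arrays scaled to their median (adjusted p = 0.062). Tpm exceeded memory cells by 0.77 (adjusted p = 0.0661), and the difference was called without Tpm 14 (0.93, adjusted p = 0.0352) or Tpm 15 (0.90, adjusted p = 0.049) and with median scaling (1.63, adjusted p = 0.00137), but not with memory 9 alone (0.93, adjusted p = 0.2). Memory cells and Teff differed by 0.034 with an interval from -0.56 to 0.63. Tgif1 averaged 8.58 on Tpm arrays 12 to 17 and 9.45 on Tpm arrays 1 to 11, and 7.77 and 8.50 in the same ranges of Teff. With these sample numbers as a covariate, Tpm exceeded Teff by 0.87 (adjusted p = 0.00123) and memory cells by 1.09 (adjusted p = 0.00148).

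Skil encodes SnoN, a Smad corepressor that TGF-beta signalling is known both to degrade and to induce. It read 9.27, 9.86, 10.28 and 8.79 in Tpm, 9.13, 8.28 and 9.28 in memory cells, 9.18, 9.28, 8.66, 9.27 and 9.50 in Teff and 9.88, 10.67, 10.27, 10.69 and 10.26 in naive cells. Naive arrays lay above all memory and Teff arrays but overlapped with Tpm. Skil fell 2.26-fold in Teff (-1.17 ± 0.27 SE, adjusted p = 0.00182) and 2.74-fold in memory cells (-1.45 ± 0.31 SE, adjusted p = 0.00271), each against naive cells. The memory call was lost when memory 9 stood alone (-1.07, adjusted p = 0.145). In Tpm it was 1.74-fold lower than in naive cells (-0.80 ± 0.29 SE), at an adjusted p of 0.0492 that passed by a narrow margin. This call was lost without memory 3, Teff 6, 8, 16 or 17, naive 2, 11, 12 or 13, Tpm 4 or Tpm 15. In all, it was lost in 16 of the 30 other settings, these included. The smallest difference was -0.55 without Tpm 15 (adjusted p = 0.188). Adjusted by limma over all kept probes in place of genes, the same probe had an adjusted p of 0.0588. Without Tpm 15, Skil also exceeded memory cells in Tpm (0.91, adjusted p = 0.0497), against 0.65 with all arrays (adjusted p = 0.165), 0.34 without memory 5 (adjusted p = 0.55) and 1.57 with median scaling (adjusted p = 0.00745). Tpm and Teff differed in Skil by 0.37 (interval -0.24 to 0.98).

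Ski, the founding member of that corepressor family, varied most among the memory arrays. It read 6.11, 6.07, 7.34 and 7.37 in Tpm, 8.28, 4.70 and 6.54 in memory cells, 6.41, 6.22, 5.74, 6.25 and 6.38 in Teff and 8.49, 7.27, 7.79, 8.27 and 8.07 in naive cells. Teff arrays lay below all naive arrays, while the memory arrays spread from close to the naive level down to background on memory 5. Ski fell 3.43-fold in Teff against naive cells (-1.78 ± 0.47 SE, adjusted p = 0.00512). The difference of Tpm from naive cells was -1.26 (adjusted p = 0.0755), and the same difference passed without memory 3 (adjusted p = 0.0173) or memory 5 (adjusted p = 0.0127), whose spread enters the common error. Over the 30 other settings, these included, it ran from -1.76 to -0.78 and was called in 9. Memory cells differed from naive cells by -1.47 (adjusted p = 0.0641), by -2.36 without memory 3 (adjusted p = 0.00144) and by -0.57 without memory 5 (adjusted p = 0.461). Memory cells differed from Teff by 0.31 (adjusted p = 0.697), by 1.21 without memory 5 (adjusted p = 0.0425) and by -0.58 without memory 3 (adjusted p = 0.347), so the sign turned on which of these memory arrays was left out. In Tpm, Ski averaged 7.35 on arrays 12 to 17 and 6.09 on arrays 1 to 11, against 8.17 and 7.85 in naive cells.

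Tgfbr3 and Ski each had, beside their kept probe, another that was above background on no array and was not kept. Of these genes, 5 had more than 1 kept probe, and the further kept probes are given with p-values adjusted over all 20006 kept probes. The second Smad3 probe read 5.77, 7.14, 6.11 and 6.25 in Tpm, 9.05, 7.14 and 8.83 in memory cells, 5.30, 6.10, 5.77, 6.44 and 5.97 in Teff and 7.67, 7.96, 7.19, 8.36 and 7.45 in naive cells. On it, memory 3 and memory 9 were above all naive arrays and the dim memory 5 was below them. Its memory minus naive difference was 0.61 (adjusted p = 0.323), so the higher memory level of Smad3 against naive cells was called on 1 of the 2 kept probes. The other Smad3 differences on this probe were -2.02 for Tpm against memory cells (adjusted p = 0.0023), 2.42 for memory cells against Teff (adjusted p = 0.000124), -1.40 for Tpm against naive cells (adjusted p = 0.0107) and -1.81 for Teff against naive cells (adjusted p = 0.000412). Tpm against Teff gave 0.41 and was not called (adjusted p = 0.505).

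The second probes of Tgfbr1, Tgfbr2, Skil and Tgif1 were also lower in Teff than in naive cells, at -1.12, -1.40, -1.35 and -2.61. Tpm was not called against Teff on the second probe of Tgfbr1 (0.67, adjusted p = 0.321), of Tgfbr2 (-0.29, adjusted p = 0.709) or of Tgif1 (0.28, adjusted p = 0.722). Each of the 4 genes called higher in Tpm than in Teff therefore had a kept probe on which the difference was not called. Against naive cells, Tpm was lower on the second probes of Tgfbr2 (-1.69, adjusted p = 0.00799) and Tgif1 (-2.33, adjusted p = 0.000501), and on the third Tgif1 probe (-1.43, adjusted p = 0.0102). On the second Skil probe it was at -1.04 (adjusted p = 0.0906). Memory cells against Teff gave 1.14 on the second Tgfbr1 probe and was not called (adjusted p = 0.0742).

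**Figure D3:**
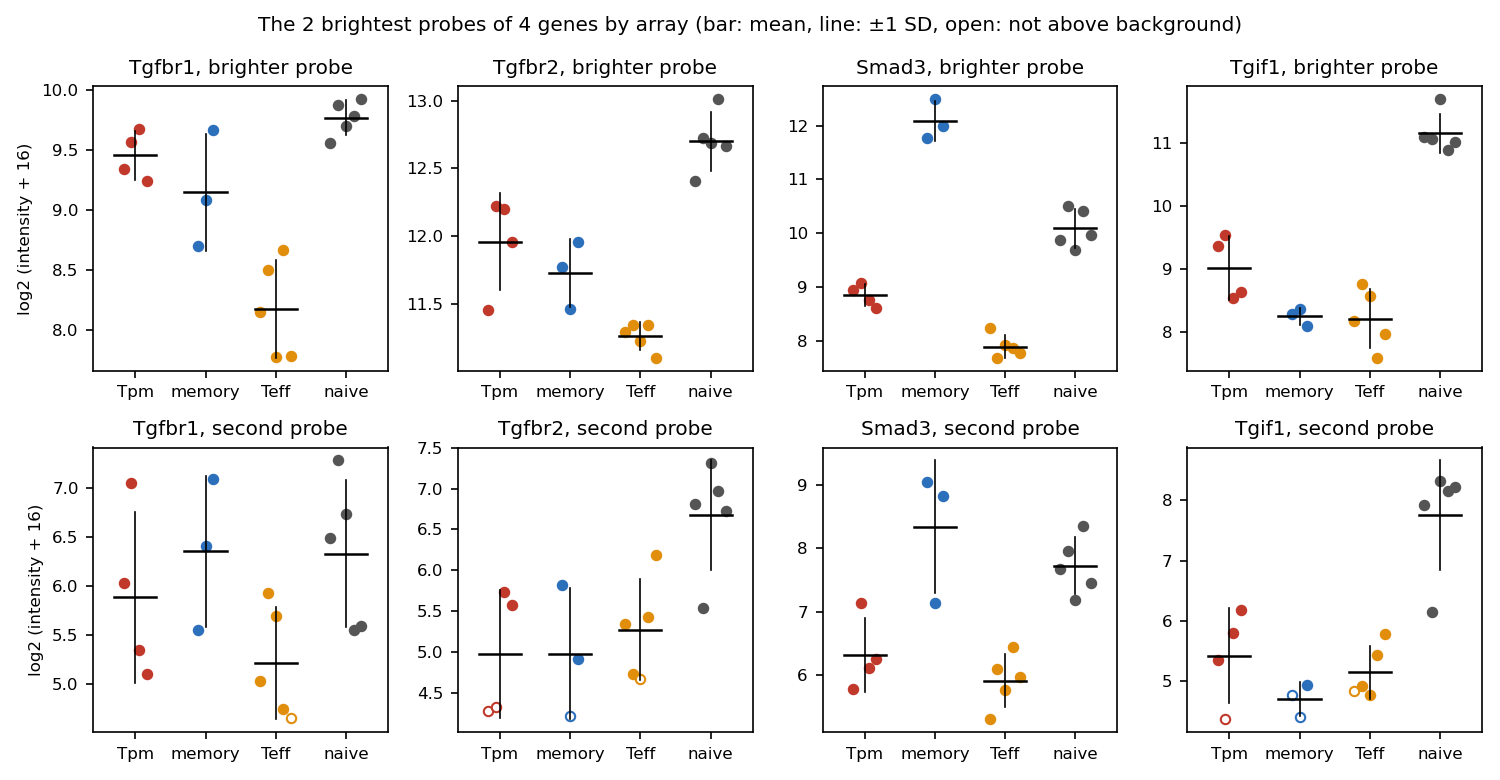
Log2 (intensity + 16) on each array (y axis) for the brightest kept probe (top row) and the second kept probe (bottom row) of Tgfbr1, Tgfbr2, Smad3 and Tgif1 in Tpm, memory cells, Teff and naive cells (x axis); points are arrays, open points are not above background, bars are means and lines 1 SD. The memory points of Smad3 lie above all naive points on the brightest probe, whereas on the second probe memory 5, at 7.14, lies below them.

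Genes with a course like that of Smad3 over the 17 arrays were Golm1, a Golgi membrane protein (Pearson r = 0.978), Rap1gap2, a GTPase-activating protein for Rap1 (r = 0.976), and Ccl5, a chemokine of memory and effector T cells (r = 0.9751). Ccl5 averaged 8.84 in Tpm, 14.50 in memory cells, 7.14 in Teff and 10.93 in naive cells, the same order of groups as Smad3. For Tgif1 they were Kdm6b, a histone H3K27 demethylase (r = 0.965), Kpna1, an importin (r = 0.963), and Zbtb21, a zinc-finger repressor (r = 0.959). Kdm6b averaged 6.83 in Tpm, 6.65 in memory cells, 6.50 in Teff and 8.79 in naive cells. For Tgfbr2 they were Hbp1, a transcriptional repressor (r = 0.950), Klhl3, an adaptor of a ubiquitin ligase (r = 0.947), and Stk4, the kinase MST1 (r = 0.946). These coefficients follow the differences between the 4 groups, since the arrays of a group share them.

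The counts that follow, each against naive cells, stand beside the shares of all genes that rose and fell: 16.5% and 9.4% in Tpm, 9.86% and 11.6% in memory cells, and 22.9% and 19.9% in Teff. Among 10 tested genes that make, store or release the ligand, 4 rose in Tpm, 2 rose and 1 fell in memory cells, and 4 rose and 2 fell in Teff. Their median differences were 0.42, 0.22 and 0.37. Mmp14, a membrane metalloprotease able to release latent TGF-beta, rose by 3.08 in Tpm against naive cells (adjusted p = 8.43e-07) and was also above Teff (2.66) and memory cells (2.75). Its range was 7.48 to 8.02 in Tpm and 4.30 to 4.84 in naive cells. Nrp1, a co-receptor that binds latent and active TGF-beta, rose in Tpm by 1.48, in memory cells by 3.66 and in Teff by 1.10 against naive cells. Ltbp3, a latent TGF-beta binding protein, was at least 3.64-fold higher in Teff than in naive cells, where it was not above background. Nrros, which tethers latent TGF-beta on cell surfaces, rose by 1.45 in memory cells, and Furin, the protease that cleaves the TGF-beta precursor, fell by 1.13. The LSEC markers above, which were highest in Tpm, moved with Mmp14, and their part in its difference was not tested.

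Of 9 other receptors of the TGF-beta family, 3 rose in Tpm, 1 rose and 1 fell in memory cells and 3 rose in Teff against naive cells, with medians of 0.29, 0.13 and 0.15. Bmpr2, the type II receptor for bone morphogenetic proteins, rose by 1.94 in Tpm (adjusted p = 3.08e-05) and by 1.68 in Teff (adjusted p = 2.69e-05). Bmpr1a, its type I partner, was at least 3.72-fold higher in Teff than in naive cells. Eng, an endothelial co-receptor that is also among the LSEC markers, rose by 0.96 in Tpm (adjusted p = 0.0496) and fell by 1.38 in memory cells (adjusted p = 0.0136).

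Among 9 other Smads and Smad partners, 2 rose in Tpm, 2 fell in memory cells, and 1 rose and 3 fell in Teff against naive cells, with medians of -0.16, -0.21 and -0.51. Smad1 and Smad5, the Smads of the bone morphogenetic protein branch, fell in Teff by 0.84 (adjusted p = 0.00111) and 1.64 (adjusted p = 0.000363). Both were higher in Tpm than in Teff, by 0.81 (adjusted p = 0.00399) for Smad1 and 1.42 (adjusted p = 0.00353) for Smad5. Smad1 also fell by 1.05 in memory cells against naive cells (adjusted p = 0.00159). Crebbp, a histone acetyltransferase that Smads recruit, fell by 0.94 in Teff. Wwtr1, the Hippo-pathway coactivator TAZ, was at least 3.18-fold higher in Tpm than in naive cells. Smad4, the shared partner of all receptor-activated Smads, was not tested because no probe was assigned to its symbol.

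A further list held 16 tested regulators of the pathway, inhibitors and others, among them the deubiquitinases Usp4, Usp11 and Usp15. Its counts therefore carry no single direction of effect on signalling. Of these 16, 3 rose and 2 fell in Tpm, 5 fell in memory cells, and 2 rose and 8 fell in Teff against naive cells. The shares of all genes that fell were 9.4%, 11.6% and 19.9%. Their medians were -0.36 in Tpm, -0.31 in memory cells and -0.50 in Teff. Nedd4l, a ubiquitin ligase for activated SMAD2 and SMAD3, fell in all 3 groups, by 1.19 in Tpm, 1.23 in memory cells and 1.39 in Teff. Cblb, a ubiquitin ligase that restrains T-cell activation, rose by 1.33 in Tpm and 1.43 in Teff. Bcl6, a transcriptional repressor, differed in direction, rising by 1.29 in Tpm (adjusted p = 0.0237) and falling by 2.08 in Teff (adjusted p = 0.000212) against naive cells. Between Tpm and Teff, Bcl6 differed by 3.37 (adjusted p = 5.83e-06). Of 10 kinases and related genes of the non-Smad branch, 3 fell in Tpm, 1 fell in memory cells, and 1 rose and 3 fell in Teff against naive cells, with medians of -0.33, -0.34 and -0.16. The largest of these falls was 0.94, of Rock1 in Tpm.

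The next list shares Pmepa1 with the regulators above. It holds 19 tested genes known from other work to be induced by TGF-beta in some cell types, not always T cells. Of these, 6 rose and 2 fell in Tpm, 6 rose and 5 fell in memory cells, and 6 rose and 5 fell in Teff against naive cells. The medians were 0.52, -0.080 and 0.056. Itgae, which encodes CD103, read 12.10 to 13.76 in Tpm, 7.78 to 10.41 in memory cells, 6.33 to 9.48 in Teff and 11.52 to 12.30 in naive cells. It was higher in Tpm than in Teff by 4.02 (adjusted p = 4.55e-05) and than in memory cells by 3.64 (adjusted p = 0.00063). Against naive cells Itgae fell by 2.91 in memory cells (adjusted p = 0.00291) and by 3.29 in Teff (adjusted p = 9.1e-05), and Tpm differed by 0.73 (adjusted p = 0.417). Ccn2, a matricellular protein made by endothelial and stromal cells, was at least 21.6-fold higher in Tpm than in naive cells. Bgn and Dcn, stromal matrix genes, averaged 9.33 and 8.65 in Tpm and 4.34 and 4.40 in naive cells. Their part in the Ccn2 difference was not tested. Junb, an AP-1 subunit, and Rgs1, a regulator of G-protein signalling, fell by 3.57 and fell by 2.27 in Tpm against naive cells. Bhlhe40, a transcription factor of activated T cells, rose in memory cells by 3.43 and in Teff by 4.55, and was lower in Tpm than in Teff by 4.03 on the log2 scale.

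Of 13 tested genes known to be held down by TGF-beta in T cells, 1 rose and 2 fell in Tpm, 8 rose in memory cells, and 6 rose and 2 fell in Teff against naive cells, where 16.5%, 9.86% and 22.9% of all genes rose. The medians were 0.059, 2.22 and 0.47. In Tpm against memory cells 1 rose and 9 fell, with 16% and 8.6% of all genes and a median of -2.25. In Tpm against Teff 2 rose and 5 fell, with 15.8% and 13.5% of all genes and a median of -0.19. Klrg1, an inhibitory receptor of late effector and memory cells, was above background in the memory group only, where it was at least 64.4-fold higher than in naive cells. Tbx21, the transcription factor T-bet, rose by 1.69 in Tpm (adjusted p = 3.25e-05), by 4.90 in memory cells (adjusted p = 2.74e-10) and by 1.36 in Teff (adjusted p = 5.78e-05). Ifng, the gene of interferon gamma, rose by 4.85 in memory cells (adjusted p = 1.52e-08) and by 2.17 in Teff (adjusted p = 1.15e-05), and in Tpm its 4 arrays read 4.20 to 5.63, with 2 above background. Klf2, a quiescence factor, read 9.29 to 11.54 in Tpm, 12.64 to 12.95 in memory cells, 6.13 to 8.41 in Teff and 13.31 to 13.49 in naive cells. It fell by 2.81 in Tpm (adjusted p = 6.94e-05) and by 5.64 in Teff (adjusted p = 3.1e-09) against naive cells.

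**Figure D4:**
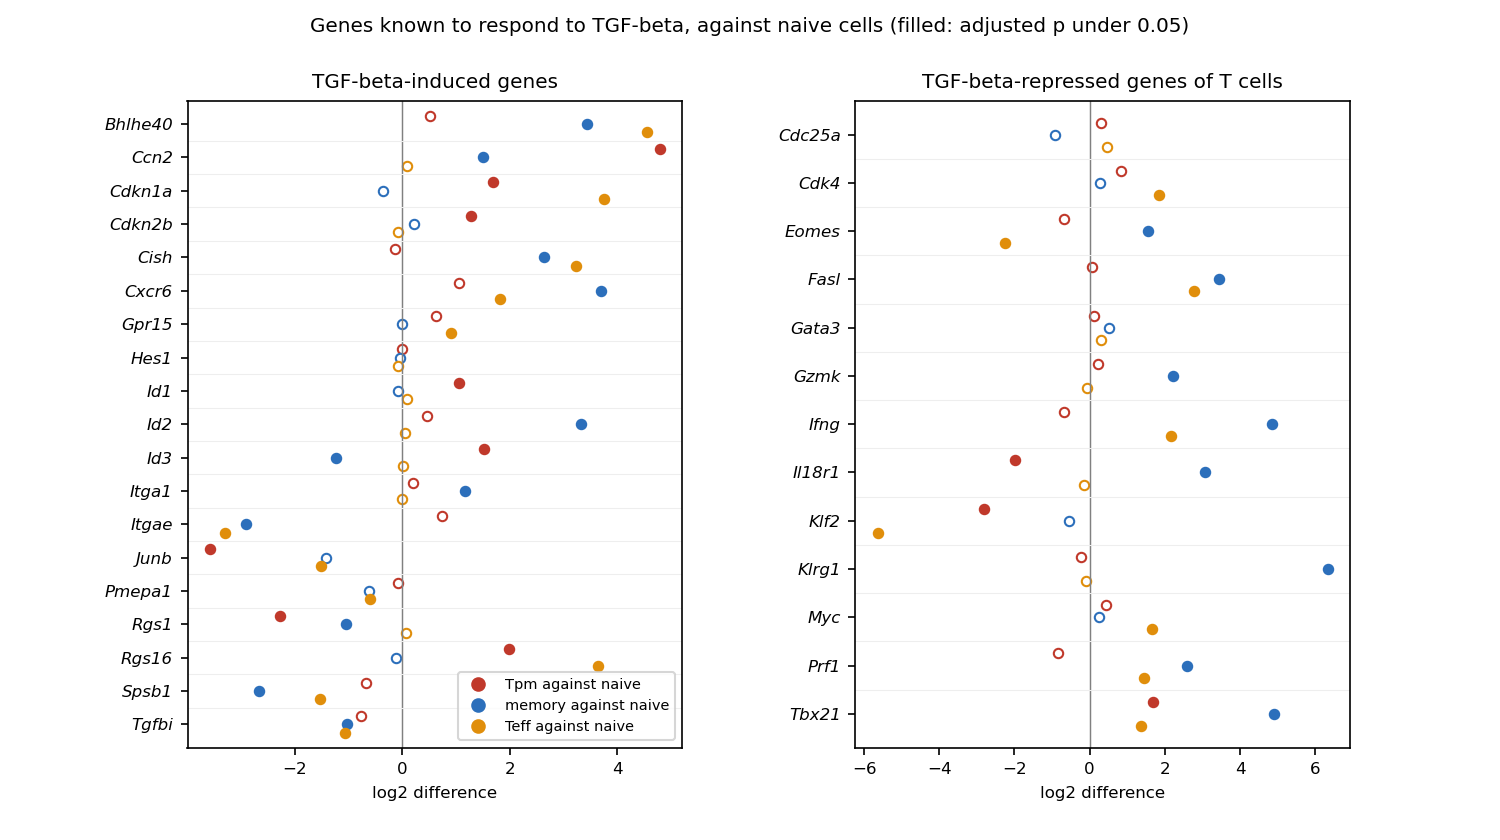
Log2 differences against naive cells (x axis) in Tpm, memory cells and Teff for genes known from other work to respond to TGF-beta (y axis). The 19 genes on the left are induced in some cell types, and the 13 on the right are repressed in T cells. Filled points are called at an adjusted p under 0.05. Ccn2 in Tpm lies far to the right at 4.79, Itgae lies left of 0 in memory cells and Teff, and Klrg1, Tbx21 and Ifng in memory cells lie at 6.33, 4.90 and 4.85.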

How the data were processed

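RNA of 17 mouse CD8 T-cell samples was prepared with QIAzol and miRNeasy columns, labelled as biotinylated cRNA and measured on Illumina arrays, per the labels' protocols. The values used are the linear signal intensities deposited by the authors before normalization, made by steps the sources used here do not give. The authors' processed intensities, an alternative here, matched a quantile normalization of those signals to within 0.0299, on a linear scale, not centred, with a median of 97.8 in every column.

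The background of each array was taken as the mode of its lower signals and removed with normexp and an offset of 16. Arrays were then quantile normalized and put on the log2 scale. A probe was above background when it exceeded the mode by 2.326 SD (1-sided p of 0.01), and probes above it on at least 3 arrays were kept (20006 of 45281). Of all probes, 34885 had 1 gene symbol in the platform annotation, 18 had several and 10378 had none. Each gene was represented by its kept probe of highest mean. Differences were tested with limma 3.58.1 in R 4.3.3 over all 17 arrays, 1 coefficient per group, two-sided, with Benjamini-Hochberg adjustment over 10622 genes. The code was tested on simulated data. A fold given as "at least" sets a group's mean against a bound for a group where the gene was not above background: per array, the lowest value above background, or the gene's value where that is higher. The number of arrays limits the precision.

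The genes, the pathway and marker lists and the rule for named genes were chosen with earlier results of these data known. The rule takes up to 4 called genes of largest difference per list and comparison, and the 3 genes best correlated with each of the 3 members of largest F. Values of such a gene in further comparisons, and Smad4, were added after they were seen. Promoter sequences are from RefSeq (GRCm38.p6), where 6 of 8 genes looked for had an entry.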

Additional observations from a re-analysis of the deposited data

Results flagged for a closer look

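Of 30 groups of 4 or 5 arrays examined over all 10 genes, Smad7 included, 2 held an array far from the rest of its group relative to the spread of that group, and chance gives about 1 such array in 20 groups. Ski on Teff 10 was the lowest of its group at 5.74, with the nearest other Teff array at 6.22. Tgif1 on naive 11 was the highest of its group at 11.70, with the nearest other naive array at 11.09.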

How the results depend on the processing

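Over all settings other than a single left-out array, 633 single-gene differences stayed on their side of the threshold, 23 passed it, 18 lost it and 1 called difference changed sign, and with single arrays left out 892 stayed, 11 passed it and 15 lost it. Among differences that were not called, 31 changed sign in settings other than a left-out array and 20 with single arrays left out. Smad3 was called in all 6 comparisons wherever its brightest probe or the mean of its probes was refitted, but Tpm against Teff missed the 2-fold rule, and neither that difference nor memory against naive cells was called on every kept probe. The count of called genes for Tpm against Teff (4) was 2 with arrays scaled to their median, 2 with the mean of a gene's probes, 1 with at least 2-fold as well and 0 where every kept probe of a gene had to be called. For Tpm against memory cells (2) it was 6 with median scaling, for Tpm against naive cells (4) it was 2 within sample numbers 1 to 11 and 2 with at least 2-fold as well, and for memory against naive cells (5) it was 3 without memory 3 and memory 5. Leaving out single arrays gave 3 to 5 for Tpm against naive cells, 3 to 4 for Tpm against Teff, 2 to 4 for Tpm against memory cells (4 without Tpm 15), 3 to 5 for memory cells against Teff (5 without memory 5), 5 to 6 for memory against naive cells and 6 in each case for Teff against naive cells. Median scaling moved the median of all genes to 0.28 for Tpm against memory cells and to between -0.14 and 0.14 in the other comparisons. With it the split of all calls was 3070 higher and 790 lower for Tpm against memory cells, beside 1702 and 913 with quantile normalization, and 825 and 2674 for memory against naive cells, beside 1047 and 1237. Tgfbr1 in memory cells against Teff changed sign, to -0.0031; the cause was not tested. No paired analysis was possible because the sample numbers run through all groups and no 2 groups share one. A background correction from control probes or detection p-values was not run. The dim memory 3 and memory 5 limit every comparison with memory cells, and without them the lone memory array is assumed to vary like the other groups.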
